A study of Mus musculus with 18 samples.

Results

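Nonsense-mediated decay factors are the proteins that recognise an mRNA whose translation stops too early and start its destruction. The members were chosen as a list of symbols, Upf1, Upf2, Upf3a, Upf3b, Smg1, Smg5, Smg6, Smg8 and Smg9, and are 9 of the 54752 genes in the RNA files and 9 of the 22523 genes in the footprint files. The libraries come from the cerebellum of mice aged 3 weeks, of both sexes, on the C57BL/6J (B6J) strain. 3 genotypes were compared, each with 3 RNA-seq libraries and 3 ribosome profiling libraries, in which the fragments of mRNA protected by ribosomes (footprints) are sequenced. The study asked how loss of the translational GTPases GTPBP1 or GTPBP2, which act on paused ribosomes, changes gene expression and translation.

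All mice, the B6J controls included, carry the B6J mutation of n-Tr20, which impairs processing of a brain tRNA that reads the arginine codon AGA. B6J.Gtpbp1-/- mice are congenic for the tm1Ynim allele, a PGK-Neo insertion that removes exon 4 and some of exon 3. B6J-Gtpbp2-/- mice carry nmf205, a null point mutation induced with ENU. Each footprint replicate was 1 cerebellum, and the RNA libraries came from 3 mice of each genotype.

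UPF1 is an RNA helicase that binds terminating ribosomes, and UPF2 with UPF3A or UPF3B joins it to the exon junction complex, the mark that splicing leaves on an mRNA. The kinase SMG1, held in check by SMG8 and SMG9, phosphorylates UPF1, and SMG5 and SMG6 bind phosphorylated UPF1 to bring decapping, deadenylation or cleavage of the mRNA. In neurons the pathway also sets the levels of normal mRNAs, and mRNAs of several of the factors are themselves its substrates.

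Total counts per RNA library were 49090501, 50301391 and 52114400 in B6J, then 44243134, 49294194 and 37794598 in B6J.Gtpbp1-/-, and 46027009, 50878852 and 51979679 in B6J-Gtpbp2-/-. Footprint totals were lower, at 4428395, 4489970 and 6523974 in B6J, then 7054063, 8612441 and 5944024 in B6J.Gtpbp1-/-, and 6281637, 3630823 and 10442573 in B6J-Gtpbp2-/-. A member had between 743 and 27846 estimated counts in an RNA library and between 45 and 1780 counts in a footprint library, so footprint values of single members are less precise. All 9 members passed the filter on low counts in every comparison. Values are given in the order of replicates 1, 2 and 3, and the replicate numbers carry no order in time or dose.

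The mutated genes were read first, as a check of the labels. Gtpbp1 RNA stood at 71.0, 77.8 and 66.7 CPM (counts relative to the size of the library, scaled by edgeR's TMM factors) in B6J, at 44.0, 41.7 and 43.9 in B6J.Gtpbp1-/- and at 58.7, 72.2 and 65.7 in B6J-Gtpbp2-/-. Gtpbp1 footprints stood at 73.6, 117 and 84.9 CPM, at 32.0, 25.5 and 35.6, and at 79.4, 66.8 and 62.1. In CPM all 3 B6J.Gtpbp1-/- libraries of each assay were below every other library. The position of the reads is not given, so loss of the deleted part itself could not be checked. In TPM Gtpbp1 RNA overlapped, at 34.5, 35.1 and 41.1 in B6J.Gtpbp1-/- against 43.5, 38.4 and 40.4 in B6J. With an offset for effective transcript length the log2 fold change of Gtpbp1 RNA against B6J was -0.31 and not called, in place of -0.73. Gtpbp2 RNA stood at 85.9, 74.0 and 88.1 CPM in B6J and at 65.5, 75.4 and 72.7 in B6J-Gtpbp2-/-, which overlap, and a point mutation need not lower the RNA. Its log2 fold change of -0.22 was not called, but from protein_coding transcripts alone it was -0.61 and called, with an adjusted p of 0.00967 (edgeR quasi-likelihood test, Benjamini-Hochberg), and with the effective length offset it was 0.32 and not called. In TPM Gtpbp2 RNA was higher in every B6J-Gtpbp2-/- library (127, 145 and 151) than in every B6J library (114, 91.7 and 99.0). In B6J.Gtpbp1-/- Gtpbp2 RNA was at 109, 100 and 104 CPM, above every B6J library, at a log2 fold change of 0.34 with an adjusted p of 0.0154 (edgeR quasi-likelihood test, Benjamini-Hochberg), and it was called in 12 of 14 alternatives, not without B6J.Gtpbp1-/- replicate 1 (0.31) or B6J replicate 2 (0.26). Gtpbp2 footprints were at 44.8, 36.1 and 38.5 CPM in B6J, at 36.2, 43.3 and 58.3 in B6J.Gtpbp1-/- and at 28.9, 26.4 and 7.54 in B6J-Gtpbp2-/-, the last all lower. The Y-linked Ddx3y reached 119 and 128 CPM in the RNA of B6J.Gtpbp1-/- replicates 1 and 2 and 101 CPM in that of B6J replicate 2, and did not pass 0.549 CPM in the other 6 RNA libraries, so sex is unevenly spread over the genotypes.

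Markers of cerebellar cells were present, and no marker was at 0 in every library. The summed level of 8 granule neuron markers was 3479, 3521 and 3595 TPM (a count relative to transcript length and library size) in B6J, but 2300, 2257 and 2632 in B6J.Gtpbp1-/- and 2442, 2614 and 2253 in B6J-Gtpbp2-/-. By mean, Gabra6 was the most abundant in B6J (890 TPM), and Cbln1 in B6J.Gtpbp1-/- (527) and B6J-Gtpbp2-/- (523). By edgeR's quasi-likelihood test, 8 of 8 and 7 of 8 granule neuron markers were called lower. The sum over 5 microglia markers, led by C1qa, was 55.2, 56.2 and 60.3 TPM in B6J but 133, 115 and 119 in B6J.Gtpbp1-/- and 118, 118 and 124 in B6J-Gtpbp2-/-, with 3 of 5 called higher in each mutant. The sum over 5 oligodendrocyte markers, led by Mbp, was 8976, 7707 and 8913 TPM in B6J but 7242, 7360 and 6322 in B6J.Gtpbp1-/- (5 of 5 called lower) and 10563, 7934 and 8614 in B6J-Gtpbp2-/- (0 of 5 called, 0 with an unadjusted p under 0.05). In TMM-scaled counts all 5 Purkinje cell markers had log2 fold changes below 0 in each mutant, with 2 and 3 called, but in TPM their sums overlapped, with means of 5065 in B6J, then 5112 in B6J.Gtpbp1-/- and 4513 in B6J-Gtpbp2-/-. Of 3 endothelial markers 2 were called higher in each mutant, of 5 astrocyte and Bergmann glia markers 1 was called higher and 2 lower in each, and of 4 blood markers 1 and 0 were called higher.

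In footprints all 8 granule neuron markers were below 0 in each mutant, with a median log2 fold change of -0.60 in B6J.Gtpbp1-/- (0 called, 5 at an unadjusted p under 0.05) and -1.10 in B6J-Gtpbp2-/- (5 called). The 5 Purkinje cell markers were at or above 0 in footprints of each mutant, with 0 called, the reverse of their RNA counts, and 1 microglia and 1 endothelial marker were called higher in each. Oligodendrocyte markers, lower in B6J.Gtpbp1-/- RNA, were above 0 in footprints for 4 of 5 there (median 0.10) and 5 of 5 in B6J-Gtpbp2-/- (median 0.17), with 0 called. Genes listed as markers of bone and skeletal muscle summed to 273, 662 and 879 CPM in B6J footprints, against 1563, 1373 and 2631 in B6J.Gtpbp1-/- and 603, 972 and 474 in B6J-Gtpbp2-/-. Most of the sum was collagen, with Col1a1 at 948, 833 and 1660 CPM and Col1a2 at 593, 519 and 939 in B6J.Gtpbp1-/-. It therefore does not by itself show tissue from outside the cerebellum. Every B6J.Gtpbp1-/- library was above all the others, with 5 of 5 markers at an unadjusted p under 0.05 and 0 called, while in RNA 0 were at that p in either mutant. In bulk tissue, fewer cells of a type and less RNA per cell cannot be told apart, and the part of these shifts in the values of the decay factors was not tested.

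Between genes, levels were compared only per length. In RNA, Smg1 had the highest level of the 9 members, with a mean of 86.9 TPM (SD 8.30, n = 9 libraries). Smg5 at 57.3 and Upf3b at 46.5 TPM came next, with overlapping ranges over the libraries. Upf1 (35.4), Smg9 (30.6), Upf2 (29.3), Smg6 (23.6) and Upf3a (23.2) formed a run in which each overlapped the next. Smg8 was lowest, at 12.4 TPM, and its range of 8.70 to 15.4 did not reach that of Upf3a. Among 19686 coding genes Smg1 stood above 89.6% and Smg8 above 52.3%.

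The order of the members in footprints per kilobase of coding sequence was different. The 2 orders do not measure the same RNA, since TPM sums all transcripts of a gene and footprints cover the coding sequence alone. In B6J, protein_coding transcripts took a mean of 54.1% of the TPM of Smg9 and 100% of that of Upf1. Upf1 was highest, with a mean of 46.6 CPM per kilobase (SD 3.10, n = 9 libraries), and its lowest library at 41.9 exceeded the highest library of the next member. Smg9 followed at 24.8, then Upf3a at 18.5, Upf3b at 16.8, Smg5 at 16.5 and Smg1 at 16.2. Smg8 at 10.9, Smg6 at 8.42 and Upf2 at 8.18 were lowest, and from Smg9 down each member overlapped the next. These means pool the genotypes, and the place of Smg1, first in RNA, moved from library to library. It was at 36.3, 29.9 and 8.18 CPM per kilobase in B6J, at 5.73, 7.32 and 10.5 in B6J.Gtpbp1-/- and at 16.0, 22.2 and 9.33 in B6J-Gtpbp2-/-, so that B6J replicate 3 lay within the B6J.Gtpbp1-/- range.

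Each mutant was compared with B6J to ask whether loss of either GTPase changes the RNA of the decay factors. Both comparisons use the same 3 B6J libraries, so their values are not independent and are given side by side. A gene is called where the quasi-likelihood test of edgeR, adjusted after Benjamini-Hochberg over all genes tested, gives an adjusted p of at most 0.05. In B6J.Gtpbp1-/-, 1 of 9 members was called, against 13.8% of all 24577 genes tested. DESeq2 also called 1, and 2 members, Upf3a and Smg8, had an unadjusted p under 0.05. In B6J-Gtpbp2-/-, edgeR called 0 of 9, against 8.63% of 24859 genes, while DESeq2 called 1 and 4 members had an unadjusted p under 0.05. Counts of calls this small are near the background, or below it.

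Groups whose 3 values do not overlap give a description without a test. In RNA CPM this held for Upf2, higher, and Upf3a, lower, in B6J.Gtpbp1-/- (2 of 9, against 31.9% of all genes tested). It held for Upf3a and Smg9, both lower, in B6J-Gtpbp2-/- (2 of 9, against 28.6%). In TPM it held for Upf2, higher, Upf3a, lower, and Smg5 and Smg8, both higher, in B6J.Gtpbp1-/-, and for Smg5 and Smg8 alone, both higher, in B6J-Gtpbp2-/-. No share over all genes is given for TPM, here or below, so such separations in TPM are not set against a background. The median log2 fold change of the 9 members, mutant over B6J, stood at -0.09 for B6J.Gtpbp1-/- and -0.10 for B6J-Gtpbp2-/-, beside 0.03 over all genes tested in each. Under upper quartile scaling these medians were -0.04 and -0.06 beside 0.08 and 0.07. With an offset for effective transcript length the median of the members changed sign in B6J.Gtpbp1-/-, to 0.01, and was -0.05 in B6J-Gtpbp2-/-.

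**Figure D1:**
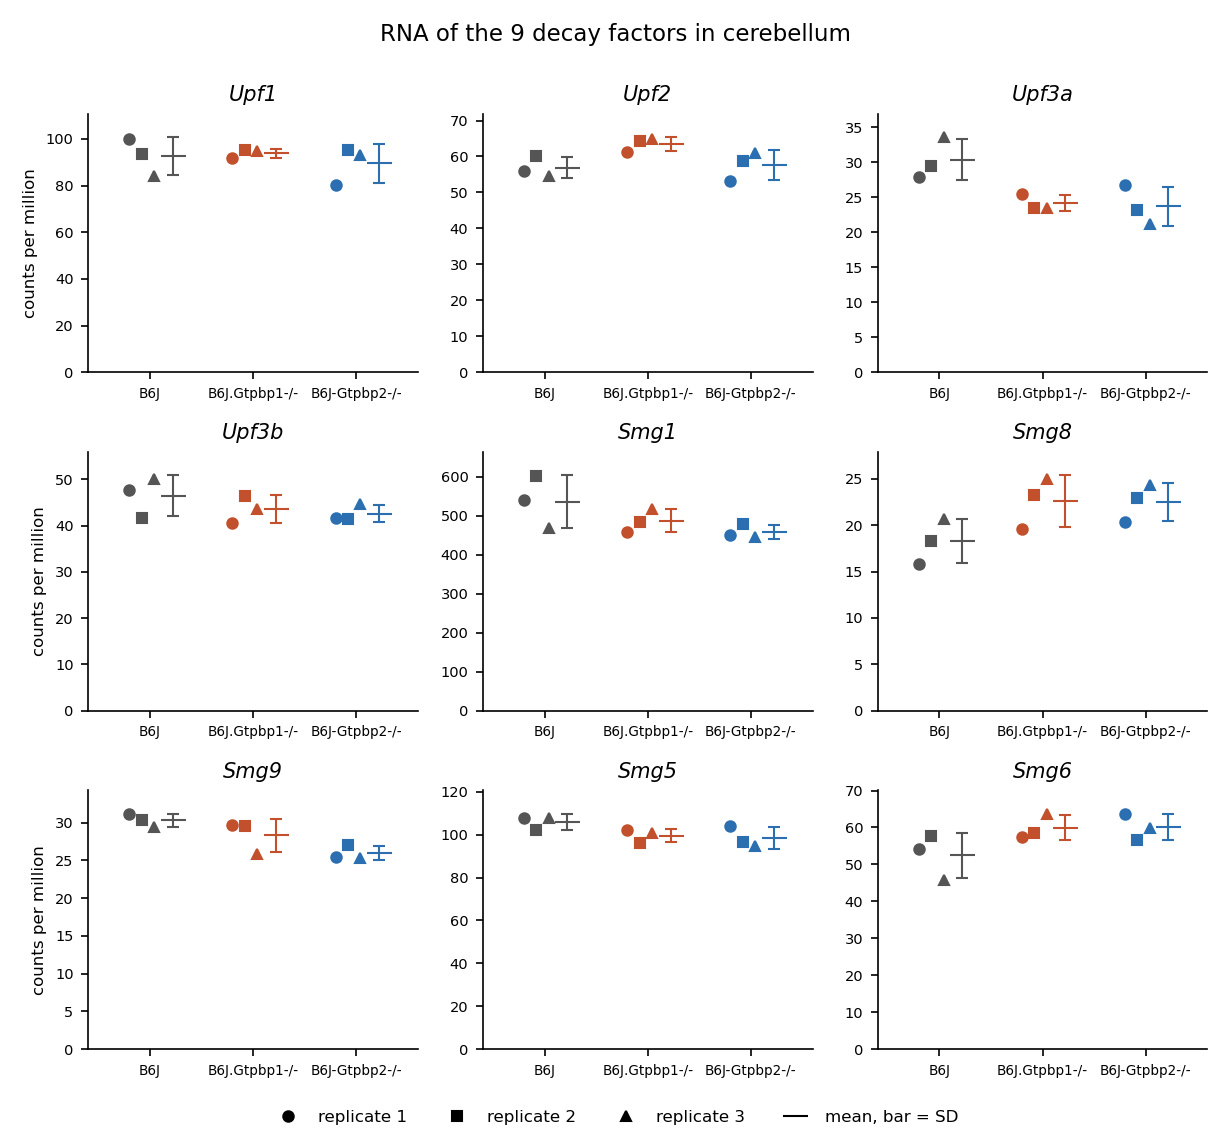
RNA of the 9 decay factors in TMM-scaled CPM, 1 panel per gene, with 1 point per library, the mean and a bar of 1 SD for each genotype (n = 3). The 6 mutant libraries of Upf3a lie between 21.2 and 26.8, under the lowest B6J library at 27.9.

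Among the UPF proteins, Upf3a showed the smallest p in RNA. It encodes a paralogue of UPF3B that binds UPF2 and lies at chr8:13785615-13799193 on the + strand (GRCm38). Its RNA was at 27.9, 29.5 and 33.6 CPM in B6J, at 25.5, 23.5 and 23.5 in B6J.Gtpbp1-/- and at 26.8, 23.2 and 21.2 in B6J-Gtpbp2-/-. In CPM all 6 mutant libraries were below all 3 B6J libraries, and the gap between the closest pair, B6J replicate 1 and B6J-Gtpbp2-/- replicate 1, was small. In TPM this pair was reversed, at 23.9 and 24.6, so B6J and B6J-Gtpbp2-/- overlapped. The log2 fold change was -0.33 (SE 0.10) in B6J.Gtpbp1-/-, with an adjusted p of 0.0483 (edgeR quasi-likelihood test, Benjamini-Hochberg), lower in 3 of 3 libraries. It was -0.36 (SE 0.12) in B6J-Gtpbp2-/-, with an adjusted p of 0.0911 (edgeR quasi-likelihood test, Benjamini-Hochberg), lower in 3 of 3 libraries.

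The Upf3a call in B6J.Gtpbp1-/- rested on nearly every library. Leaving out B6J.Gtpbp1-/- replicate 1, 2 or 3 gave log2 fold changes of -0.37, -0.31 and -0.31, and then adjusted p-values (edgeR quasi-likelihood test, Benjamini-Hochberg) of 0.0674, 0.178 and 0.123. Leaving out B6J replicate 2 or 3 gave -0.35 and -0.25, with adjusted p-values (edgeR quasi-likelihood test, Benjamini-Hochberg) of 0.0868 and 0.110. Without B6J replicate 1 the gene was still called, at -0.39. Over the 14 alternatives run, the fold change was below 0 in each and the gene was called in 4, with adjusted p-values from 0.0208 to 0.178 (edgeR quasi-likelihood test or DESeq2, Benjamini-Hochberg). In B6J-Gtpbp2-/- it was called in 3 of 14, among them the fit without B6J-Gtpbp2-/- replicate 1, at -0.46 with an adjusted p of 0.0361 (edgeR quasi-likelihood test, Benjamini-Hochberg), in a range of 0.0361 to 0.302.

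Upf2, the adaptor between UPF1 and the UPF3 proteins, was at 55.9, 60.1 and 54.7 CPM in B6J RNA, at 61.3, 64.3 and 64.8 in B6J.Gtpbp1-/- and at 53.1, 58.7 and 61.0 in B6J-Gtpbp2-/-. The B6J.Gtpbp1-/- libraries were above all the others, while the B6J-Gtpbp2-/- range contained the B6J range. Its log2 fold change was 0.16 (SE 0.08) and 0.02 (SE 0.08), not called in either. With the effective length offset the value in B6J-Gtpbp2-/- was -0.03, and it also changed sign when some single libraries were left out.

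Upf1, the helicase at the centre of the pathway, was at 100, 93.3 and 84.1 CPM in B6J, at 91.7, 95.2 and 94.9 in B6J.Gtpbp1-/- and at 80.1, 95.3 and 93.0 in B6J-Gtpbp2-/-. The 3 groups overlapped, and the B6J.Gtpbp1-/- values lay inside the B6J range. Upf1 shares 68 exon bases with Cers1 and 63 with Gdf1 on the opposite strand, and since the use of strand is not stated its counts are uncertain there. Upf3b, an X-linked gene whose protein bridges UPF2 and the exon junction complex, was at 47.8, 41.6 and 50.1 CPM in B6J, at 40.5, 46.5 and 43.7 in B6J.Gtpbp1-/- and at 41.7, 41.5 and 44.7 in B6J-Gtpbp2-/-. These groups overlapped too, and the log2 fold changes of the 2 genes ranged from -0.13 to 0.02, smaller than the spread of the B6J replicates.

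In the SMG1 kinase complex, the kinase gene Smg1 was at 539, 601 and 468 CPM in B6J RNA, at 459, 484 and 518 in B6J.Gtpbp1-/- and at 450, 478 and 445 in B6J-Gtpbp2-/-. The highest mutant value of each genotype exceeded the lowest B6J value, so the groups overlapped. The log2 fold change was -0.14 (SE 0.10) for B6J.Gtpbp1-/- and -0.23 (SE 0.10) for B6J-Gtpbp2-/-, where the adjusted p was 0.199 (edgeR quasi-likelihood test, Benjamini-Hochberg), lower than the B6J mean in 3 of 3 libraries.

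Smg8, which holds SMG1 in an inactive state, was at 15.8, 18.3 and 20.7 CPM in B6J, at 19.6, 23.2 and 25.0 in B6J.Gtpbp1-/- and at 20.3, 22.9 and 24.3 in B6J-Gtpbp2-/-. All 6 mutant libraries were above the B6J mean of 18.3, and 1 library of each mutant lay under the highest B6J value. In TPM neither mutant overlapped B6J, with 8.70 to 11.1 in B6J against 11.9 to 15.4 in B6J.Gtpbp1-/- and 12.3 to 14.6 in B6J-Gtpbp2-/-. The log2 fold changes were 0.31 (SE 0.13) and 0.30 (SE 0.13), with adjusted p-values of 0.146 and 0.192 (edgeR quasi-likelihood test, Benjamini-Hochberg), higher than the B6J mean in 3 of 3 libraries of each. Over 14 alternatives in each comparison they stayed above 0 and were called in 0, with lowest adjusted p-values of 0.0522 and 0.0887 (edgeR quasi-likelihood test or DESeq2, Benjamini-Hochberg).

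Smg9, the partner of SMG8 in the complex, was at 31.1, 30.4 and 29.4 CPM in B6J, at 29.7, 29.5 and 25.8 in B6J.Gtpbp1-/- and at 25.5, 27.0 and 25.3 in B6J-Gtpbp2-/-. The B6J-Gtpbp2-/- libraries were below all B6J libraries in CPM, though not in TPM (30.3, 27.9 and 34.5 against 29.4, 30.5 and 30.5), and in B6J.Gtpbp1-/- only replicate 3 was clearly lower. The log2 fold change was -0.10 (SE 0.09) for B6J.Gtpbp1-/- and -0.22 (SE 0.09) for B6J-Gtpbp2-/-, the latter with an adjusted p of 0.176 (edgeR quasi-likelihood test, Benjamini-Hochberg), lower in 3 of 3 libraries.

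Of the decay factors that bind phosphorylated UPF1, Smg6, the endonuclease that cuts the target mRNA, was at 54.2, 57.6 and 45.8 CPM in B6J, at 57.4, 58.5 and 63.7 in B6J.Gtpbp1-/- and at 63.6, 56.7 and 59.9 in B6J-Gtpbp2-/-. The mutant values were mostly higher, but 1 library of each mutant lay under the highest B6J library. The log2 fold change was 0.19 in both mutants (SE 0.09 and 0.10), not called. Restricted to protein_coding transcripts, Smg6 was called in B6J.Gtpbp1-/-, at a log2 fold change of 0.35 and an adjusted p of 0.0287 (edgeR quasi-likelihood test, Benjamini-Hochberg), in a range over 14 alternatives of 0.0287 to 0.875. Smg6 shares 126 exon bases with Srr and 117 with Gm12333 on the opposite strand, so its counts are uncertain there.

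Smg5, which recruits deadenylation and decapping enzymes, was at 108, 102 and 108 CPM in B6J, at 102, 95.9 and 101 in B6J.Gtpbp1-/- and at 104, 96.8 and 94.6 in B6J-Gtpbp2-/-. The mutants were slightly lower with overlapping ranges, and the log2 fold changes were -0.09 (SE 0.07) and -0.10 (SE 0.08). In TPM the order was the opposite, with 52.4, 50.1 and 52.2 in B6J against 58.4, 63.1 and 62.0 in B6J.Gtpbp1-/- and 62.0, 61.0 and 54.3 in B6J-Gtpbp2-/-. Every mutant library exceeded every B6J library on that scale. The mean effective length of the transcripts assigned to Smg5 was 3515 bases in B6J (SD 62.4, n = 3), against 3098 in B6J.Gtpbp1-/- (SD 185, n = 3) and 3186 in B6J-Gtpbp2-/- (SD 119, n = 3). With an offset for that length the log2 fold changes of its counts were 0.08 and 0.04, the reverse sign.

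Transcript estimates were read next, to see which annotated isoforms carry these values. The members have 45 annotated transcripts, of which 35 were tested in B6J.Gtpbp1-/- and 37 in B6J-Gtpbp2-/-. By edgeR's quasi-likelihood test 0 of 35 and 0 of 37 were called, against 0.715% and 0.144% of all transcripts tested, and 2 in each had an unadjusted p under 0.05. Limma on log2(TPM + 0.5) called 0 in each, with 4 and 3 at an unadjusted p under 0.05. The transcripts named here were chosen after their values were seen, and the uncertainty of assigning reads to isoforms is not in the tests.

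Upf3a-201, the protein_coding isoform of Upf3a, was at 21.2, 21.7 and 23.1 TPM in B6J, at 19.7, 18.6 and 18.0 in B6J.Gtpbp1-/- and at 20.1, 18.2 and 15.3 in B6J-Gtpbp2-/-. All mutant libraries were lower than all B6J libraries, as in the CPM of the gene but not in its TPM. Its share of the TPM of Upf3a had a mean of 86.8% in B6J (SD 1.97, n = 3), with 83.4% in B6J.Gtpbp1-/- (SD 1.64, n = 3) and 81.9% in B6J-Gtpbp2-/- (SD 2.92, n = 3), and the remainder was annotated as retained intron. The log2 fold changes of its counts were -0.38 and -0.43, with adjusted p-values of 0.238 and 0.339 (edgeR quasi-likelihood test, Benjamini-Hochberg), lower in 3 of 3 libraries of each.

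Smg6-201, the long protein_coding isoform of Smg6, was at 11.1, 13.4 and 10.9 TPM in B6J, at 15.5, 16.7 and 17.8 in B6J.Gtpbp1-/- and at 16.0, 15.2 and 16.5 in B6J-Gtpbp2-/-. Every mutant library was above every B6J library, unlike the gene total in CPM. Its counts changed by log2 fold changes of 0.38 and 0.31, with adjusted p-values of 0.257 and 0.466 (edgeR quasi-likelihood test, Benjamini-Hochberg), higher in 3 of 3 libraries of each. The isoform of Smg6 annotated as nonsense_mediated_decay took 21.6%, 14.3% and 11.1% of the TPM of the gene in B6J, against 10.3%, 5.15% and 9.10% in B6J.Gtpbp1-/- and 16.4%, 11.6% and 6.66% in B6J-Gtpbp2-/-. The B6J.Gtpbp1-/- shares were all below the B6J shares, and the B6J-Gtpbp2-/- shares overlapped both.

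For Smg5, the 1 protein_coding isoform had a mean share of 58.6% in B6J, against 52.1% in B6J.Gtpbp1-/- and 52.3% in B6J-Gtpbp2-/- (SD 1.72, 3.28 and 2.22, n = 3 each). Smg5-208, a retained_intron isoform of 424 bases, was at 2.13, 2.81 and 2.06 TPM in B6J, at 5.72, 7.41 and 6.60 in B6J.Gtpbp1-/- and at 4.21, 6.83 and 6.06 in B6J-Gtpbp2-/-. Every mutant library was above every B6J library. The log2 fold changes of its counts were 1.20 (SE 0.56) and 1.11 (SE 0.59), with adjusted p-values of 0.526 and 0.675 (edgeR quasi-likelihood test, Benjamini-Hochberg), higher in 3 of 3 libraries of each. The nonsense_mediated_decay isoform of Smg5 had mean shares of 4.65%, 6.15% and 5.43% in the 3 genotypes, with overlapping libraries.

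Of the other members, only Smg1 had an isoform class whose shares set both mutants apart from B6J. Its retained_intron transcripts took 0.259%, 0.344% and 0.188% of the TPM of the gene in B6J, against 0.508%, 0.694% and 0.743% in B6J.Gtpbp1-/- and 0.387%, 0.516% and 1.09% in B6J-Gtpbp2-/-. This class was near the floor, with no transcript of it above 0.342 TPM in any library. How often isoforms of all genes separate in this way is not given, here or for the transcripts above. Upf1 and Smg8 were estimated wholly from protein_coding transcripts in each library. Smg9 had a large retained_intron share, from 36.6% to 63.6% in B6J alone, so its isoform levels were not stable between replicates. The nonsense_mediated_decay transcript of Smg1 was listed at 0 in all 9 libraries.

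Footprints were compared to ask how many ribosomes sit on the coding sequence of each member. In B6J.Gtpbp1-/-, edgeR's quasi-likelihood test called 0 of 9, against 0.745% of all 13956 genes tested, with 1 member, Smg1, at an unadjusted p under 0.05 and 0 called by DESeq2. In B6J-Gtpbp2-/- edgeR called 0 of 9, against 2.94% of 13797 genes, with 0 at an unadjusted p under 0.05 and 0 called by DESeq2. The median log2 fold change of the members was 0.05 and 0.16, beside 0.01 over all genes tested in each. The first was not stable, at -0.14 with the replicate block and from -0.15 to 0.03 when leaving out a library, and the second stayed above 0. The groups did not overlap for Smg8, higher in B6J.Gtpbp1-/- (1 of 9, against 17.8%), and for Upf1, higher in B6J-Gtpbp2-/- (1 of 9, against 22.6%).

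**Figure D2:**
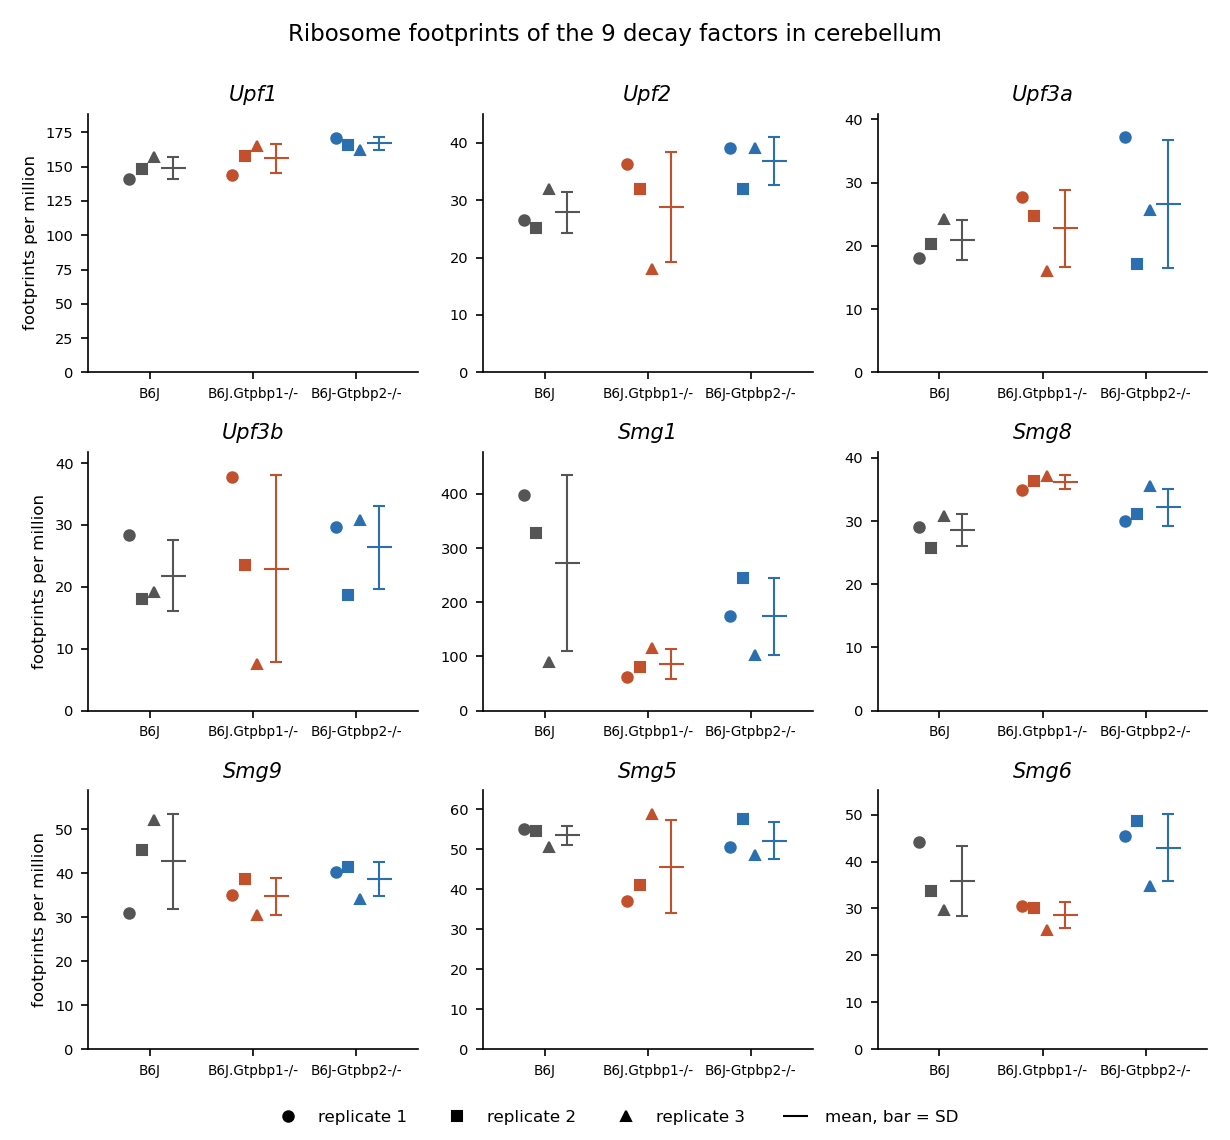
Ribosome footprints of the 9 decay factors in TMM-scaled CPM, 1 panel per gene, with 1 point per library, the mean and a bar of 1 SD for each genotype (n = 3). The B6J libraries of Smg1 spread from 89.8 to 398, while Upf1 stays between 141 and 171 over all 9 libraries.

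Upf1 footprints were at 141, 148 and 157 CPM in B6J, at 144, 158 and 165 in B6J.Gtpbp1-/- and at 171, 166 and 162 in B6J-Gtpbp2-/-. The B6J-Gtpbp2-/- libraries were above the B6J libraries by a narrow margin, and the log2 fold change of 0.15 (SE 0.14) was not called. In B6J-Gtpbp2-/- all 4 UPF genes had footprint log2 fold changes above 0, from 0.15 to 0.39, and kept that sign in each of the 11 alternatives run, though Upf3a ranged from 0.03 to 0.58 when leaving out a library, with 0 called by edgeR or DESeq2 and 0 at an unadjusted p under 0.05. Over all genes tested 6988 of 13797 were above 0. In B6J.Gtpbp1-/- the same 4 genes were also above 0, from 0.05 to 0.13, beside 7197 of 13956 genes tested. There Upf2, Upf3a and Upf3b changed sign when single libraries were left out. Upf2 had the highest of the B6J-Gtpbp2-/- values, with footprints at 26.6, 25.1 and 31.9 CPM in B6J and 39.2, 31.9 and 39.2 in B6J-Gtpbp2-/-. B6J replicate 3 and B6J-Gtpbp2-/- replicate 2 were level, so the groups touched.

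Upf3a footprints were at 18.1, 20.3 and 24.3 CPM in B6J against 27.8, 24.7 and 16.0 in B6J.Gtpbp1-/- and 37.2, 17.1 and 25.6 in B6J-Gtpbp2-/-. The mutant libraries lay on both sides of the B6J range. Upf3b footprints were at 28.4, 18.1 and 19.1 CPM in B6J and at 37.8, 23.5 and 7.51 in B6J.Gtpbp1-/-, where replicate 3 held the lowest count of any member, 45. With values that far apart, the direction in B6J.Gtpbp1-/- (log2 fold change 0.08, SE 0.46) was not resolved and changed sign when single libraries were left out.

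Smg1 footprints spread widely between replicates. They were at 398, 328 and 89.8 CPM in B6J, at 62.8, 80.3 and 116 in B6J.Gtpbp1-/- and at 175, 244 and 102 in B6J-Gtpbp2-/-. B6J replicates 1 and 2 were the highest of the 9 libraries, and B6J replicate 3 lay among the B6J.Gtpbp1-/- values. The log2 fold change in B6J.Gtpbp1-/- was -1.66 (SE 0.54), with an adjusted p of 0.264 (edgeR quasi-likelihood test, Benjamini-Hochberg), lower than the B6J mean in 3 of 3 libraries. Leaving out B6J replicate 3 gave -2.08 and a call, with an adjusted p of 0.00516 (edgeR quasi-likelihood test, Benjamini-Hochberg), in a range over 11 alternatives of 0.00516 to 0.658. Over all fits without 1 library the value ranged from -2.08 to -1.28. The B6J libraries left in the called fit, replicates 1 and 2, both had high Ddx3y footprints. Of the B6J.Gtpbp1-/- libraries only replicate 1 did, and sex was not fitted for footprints or efficiency. In B6J-Gtpbp2-/- the log2 fold change of Smg1 footprints was -0.66 (SE 0.68), and it was not called in any of 11 alternatives. When leaving out a library it ranged from -1.07 to -0.28.

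Smg8 footprints were at 29.1, 25.8 and 30.8 CPM in B6J, at 34.9, 36.3 and 37.1 in B6J.Gtpbp1-/- and at 30.0, 31.1 and 35.5 in B6J-Gtpbp2-/-. The B6J.Gtpbp1-/- libraries were above every B6J library, at a log2 fold change of 0.34 (SE 0.20) that was not called. Smg6 footprints were at 44.1, 33.7 and 29.6 CPM in B6J, at 30.6, 30.0 and 25.4 in B6J.Gtpbp1-/- and at 45.5, 48.7 and 34.9 in B6J-Gtpbp2-/-. The means of the mutants, 28.6 and 43.0, lay on opposite sides of the B6J mean of 35.8, but B6J-Gtpbp2-/- replicate 3 was below that mean and the B6J libraries overlapped both groups. Smg9 and Smg5 had log2 fold changes of -0.30 and -0.23 in B6J.Gtpbp1-/- and -0.16 and -0.05 in B6J-Gtpbp2-/-, with overlapping groups. When leaving out a library the B6J.Gtpbp1-/- values ranged from -0.48 to -0.13 for Smg9 and from -0.45 to -0.09 for Smg5.

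Translational efficiency, the footprints of a gene relative to its RNA, was tested as the interaction of assay and genotype in 1 model over the 12 libraries of a pair of genotypes. In B6J.Gtpbp1-/- edgeR's quasi-likelihood test called 0 of 9 members, against 0% of 13086 genes tested, with 2 members, Smg1 and Smg6, at an unadjusted p under 0.05 and 0 called by DESeq2. In B6J-Gtpbp2-/- it called 0 of 9, against 0.00773% of 12931 genes, with 1 member, Upf3a, at an unadjusted p under 0.05 and 0 called by DESeq2. The median log2 change of the members was -0.11 and 0.06, beside 0.03 over all genes tested in each, and when leaving out a library the first ranged from -0.22 to -0.02 and the second from -0.03 to 0.19.

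Smg1 had the lowest change in efficiency of the members in B6J.Gtpbp1-/-, at a log2 value of -1.51 (SE 0.58), and was at -0.43 (SE 0.66) in B6J-Gtpbp2-/-. When leaving out a library the first ranged from -1.96 to -1.17 and the second from -0.90 to -0.11. Without B6J footprint replicate 3 the first was -1.96 and called, with an adjusted p of 0.0125 (edgeR quasi-likelihood test, Benjamini-Hochberg), in a range over 16 alternatives of 0.0125 to 0.793. Smg6 changed by -0.50 (SE 0.22) in B6J.Gtpbp1-/- and 0.06 (SE 0.23) in B6J-Gtpbp2-/-. Upf3a changed by 0.46 (SE 0.26) and 0.71 (SE 0.30), the latter with an adjusted p of 0.374 (edgeR quasi-likelihood test, Benjamini-Hochberg), with B6J-Gtpbp2-/- RNA lower than B6J in 3 of 3 libraries and footprints higher than the B6J mean in 2 of 3. The 4 UPF genes had values from 0.21 to 0.71 in B6J-Gtpbp2-/-, above 0 in each of 16 alternatives, with 0 called by edgeR or DESeq2 and 1 at an unadjusted p under 0.05. Over all genes tested 6821 of 12931 were above 0. In B6J.Gtpbp1-/- 3 of the 4 were, beside 7087 of 13086 genes tested, though Upf1 and Upf3b among them changed sign in some fits without a library.

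**Figure D3:**
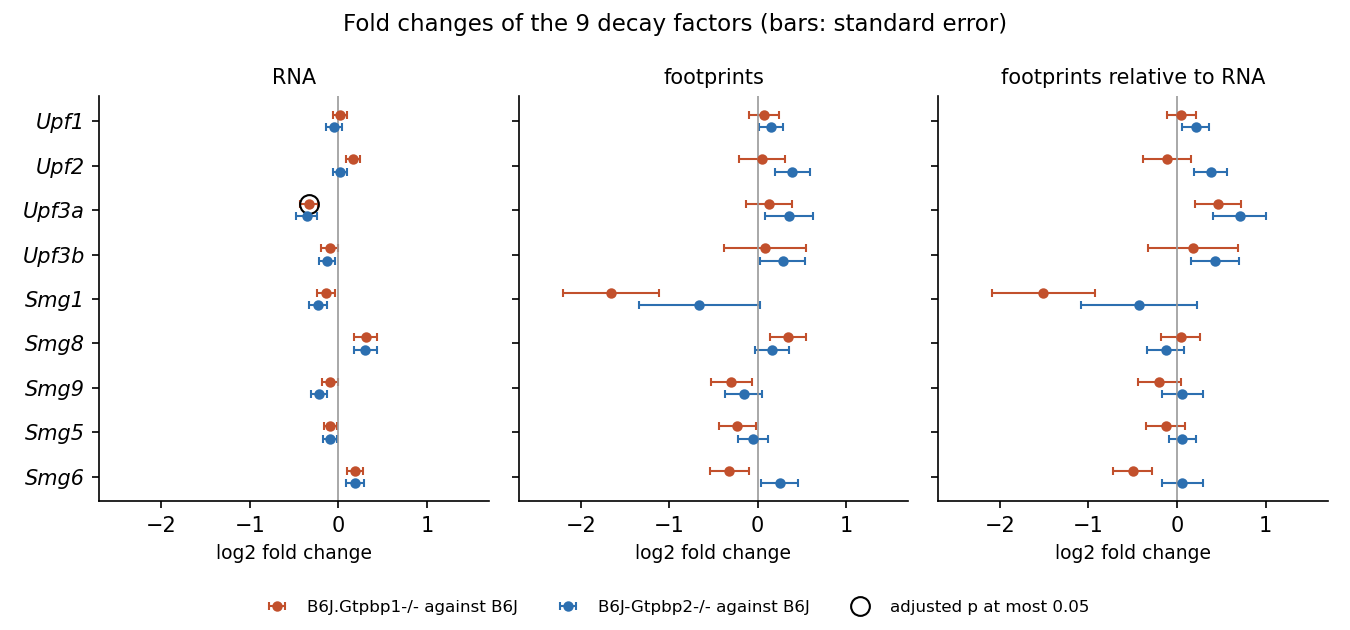
Log2 fold changes of the 9 decay factors against B6J in RNA, footprints and translational efficiency, with bars of 1 standard error from edgeR's fit, for each mutant. RNA values lie between -0.36 and 0.31, and Smg1 in B6J.Gtpbp1-/- is the farthest from 0 in footprints (-1.66) and in efficiency (-1.51).

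The mutants were also compared directly, which does not involve B6J. In RNA, edgeR's quasi-likelihood test called 0 of 9 members, against 0.0595% of 25190 genes, with 0 at an unadjusted p under 0.05 and 0 called by DESeq2. Log2 fold changes, B6J.Gtpbp1-/- over B6J-Gtpbp2-/-, lay between -0.01 and 0.14. Upf2 had the highest, and its groups did not overlap (1 of 9, against 8.95%). In footprints 0 of 9 were called, against 0% of 14142 genes, with 2 members, Smg1 and Smg6, at an unadjusted p under 0.05 by edgeR and 0 called by DESeq2. The median log2 fold change of the members was 0.03 in RNA, -0.21 in footprints and -0.26 in efficiency. Over all genes tested it was 0.00, 0.00 and 0.01. Of the members 8 of 9 were below 0 in footprints and likewise in efficiency, beside 7056 of 14142 and 6551 of 13292 genes tested. When leaving out a library the footprint and efficiency medians of the members ranged from -0.39 to -0.11 and from -0.42 to -0.20. In the same footprint comparison the 8 granule neuron markers had a median of 0.51, with 7 above 0 and 0 called. The part of such shifts between the mutants in the values of the members was not tested.

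Smg6 footprints were lower in each B6J.Gtpbp1-/- library than in each B6J-Gtpbp2-/- library (1 of 9 members without overlap, against 16.2%), at a log2 fold change of -0.58 (SE 0.20) and an adjusted p of 0.357 (edgeR quasi-likelihood test, Benjamini-Hochberg). Smg1 footprints gave -1.01 (SE 0.31), with an adjusted p of 0.320 (edgeR quasi-likelihood test, Benjamini-Hochberg) and 2 of 3 B6J.Gtpbp1-/- libraries below each B6J-Gtpbp2-/- library. In efficiency 0 of 9 were called by edgeR, against 0% of 13292 genes, with 2 at an unadjusted p under 0.05, Smg1 at -1.09 and Smg6 at -0.56, and 0 called by DESeq2. Without B6J-Gtpbp2-/- footprint replicate 3 the efficiency of Smg1 was -1.36 and called, with an adjusted p of 0.0402 (edgeR quasi-likelihood test, Benjamini-Hochberg), in a range over 16 alternatives of 0.0402 to 0.563.

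Because the tRNA mutation shared by all these mice affects a codon, the AGA codons of the members were counted in their longest annotated coding sequence. Over 21743 coding genes the median share of AGA among codons was 1.12%, and over the 9 members it was 1.31%. Upf3b had the highest share of the members, with 23 AGA codons in 472 codons or 4.87%, above 99.0% of coding genes. Upf3a followed with 15 in 422 codons or 3.55%, above 96.6%, so the paralogues of the UPF3 family stand apart from the rest of the members. Upf1 had the lowest, with 6 in 1124 codons or 0.534%, and Smg1, with the longest coding sequence of 3658 codons, held 61. Whether ribosomes pause at these codons cannot be read from counts per gene.

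Runs of 10 codons that cross an exon junction were not counted. Among the other runs, the most AGA codons in any member were 3. This count was reached in Upf3b (codons 209 to 218, chrX:37099660-37099689, - strand) and in Smg6 (codons 240 to 249, chr11:74929622-74929651, + strand). Any further runs with 3 in these genes were not listed. The runs given are printed 5′ to 3′ from GRCm38 to show how closely the AGA codons, in capitals, follow each other.
Upf3b: AGAatgAGAgaagaaaagAGAgaagaaagg
Smg6: gtaaagAGAtactcgAGAtcagacaagAGA

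Other genes of the pathway were read from fixed lists. The 10 exon junction complex genes and the 5 genes for maturation of SMG1-type kinases had 0 RNA calls by edgeR in either mutant, with 1 and 1 at an unadjusted p under 0.05 in B6J.Gtpbp1-/- and 0 in each list in B6J-Gtpbp2-/-. Of 8 genes for termination and cap binding, 2 were called higher in B6J.Gtpbp1-/- and 1 in B6J-Gtpbp2-/-, beside shares of 13.8% and 8.63% over all genes tested. Etf1, the release factor, changed by log2 0.45 and 0.40, and Abce1, which recycles ribosomes, by 0.28 and, not called, 0.13. Of 13 genes for decapping and RNA decay, 2 were called in B6J.Gtpbp1-/- and 1 in B6J-Gtpbp2-/-, near the same shares of 13.8% and 8.63%. Dis3l, an exosome nuclease, was called lower in both mutants (-0.42 and -0.36), and Pnrc2, a decapping adaptor, was called higher in B6J.Gtpbp1-/- (0.29). Abce1 lost its call without B6J.Gtpbp1-/- replicate 2 (0.25) or 3 (0.24) or B6J replicate 1 (0.24) or 2 (0.25). Pnrc2 lost it without B6J.Gtpbp1-/- replicate 1 (0.33), 2 (0.27) or 3 (0.26) or B6J replicate 1 (0.22) or 2 (0.26). In B6J-Gtpbp2-/-, Etf1 lost its call without B6J-Gtpbp2-/- replicate 2 (0.36) or 3 (0.33) or B6J replicate 1 (0.38) or 2 (0.40). Dis3l lost its call there without any 1 of the 6 libraries, at -0.27, -0.42 and -0.41 without B6J-Gtpbp2-/- replicates 1, 2 and 3 and at -0.34, -0.39 and -0.36 without B6J replicates 1, 2 and 3. With sex in the fit, Abce1 (0.31) and Pnrc2 (0.32) lost their calls in B6J.Gtpbp1-/-, and Etf1 (0.40) and Dis3l (-0.39) theirs in B6J-Gtpbp2-/-.

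Of 10 mRNAs known as sensitive to the pathway, edgeR called 4 higher in B6J.Gtpbp1-/- RNA and 3 in B6J-Gtpbp2-/- RNA, against 13.8% and 8.63% of all genes tested. Their median log2 fold change was 0.39 and 0.34, beside 0.03 over all genes tested in each, with all 10 above 0. Ddit3, Atf4 and Atf3 also belong to the integrated stress response, and whether decay or transcription raised them was not tested. Ddit3 changed by log2 1.29 and 1.18, Atf4 by 0.90 and 0.83, Atf3 by 3.14 and 3.06, and Gas5 by 0.37 and, not called, 0.26. Atf3 lost its call without B6J.Gtpbp1-/- replicate 3 (3.08) or B6J replicate 2 (3.18) in the first comparison, and without B6J-Gtpbp2-/- replicate 2 (2.80) or 3 (3.03) or B6J replicate 2 (3.10) in the second. Gas5 lost it without B6J.Gtpbp1-/- replicate 1 (0.40) or 2 (0.28) or B6J replicate 1 (0.39) or 2 (0.30). With sex in the fit, Atf3 lost its call in both comparisons (3.15 and 3.10) and Gas5 in the first (0.39). In footprints, 2 of the 8 tested were called higher in B6J.Gtpbp1-/-, Atf4 (1.71) and Ddit3 (1.84), and 1, Atf4 (1.59), in B6J-Gtpbp2-/-, against 0.745% and 2.94% of all genes tested. Footprint changes of the 8 were above 0 for 6 and 5 in the 2 mutants, with medians of 0.23 and 0.48 beside 0.01 over all genes tested in each, and changes in efficiency were above 0 for 3 and below 0 for 5 in each, with medians of -0.16 and -0.11 beside 0.03 and 0 called. Atf4 lost its footprint call without B6J.Gtpbp1-/- replicate 1 (1.71) or 3 (1.53) or B6J replicate 1 (1.60), and in the second comparison without B6J-Gtpbp2-/- replicate 1 (1.51) or 3 (1.56) or B6J replicate 1 (1.48). Ddit3 lost it without B6J.Gtpbp1-/- replicate 1 (1.78) or 3 (1.72) or B6J replicate 1 (1.75) or 3 (1.58).

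The genes whose RNA was most like that of Upf3a over the 9 libraries, by Pearson's r of log2 CPM among 10669 genes, were P3h3 (0.984), Gas1 (0.978), Kcnj11 (0.974), Eif2d (0.970) and Ndufc2 (0.970). The 9 libraries share the split between B6J and mutants, which these values follow. Eif2d, for one, was at 32.2, 33.7 and 38.7 CPM in B6J, at 27.8, 26.4 and 27.1 in B6J.Gtpbp1-/- and at 28.9, 26.7 and 25.7 in B6J-Gtpbp2-/-. As with Upf3a, B6J replicate 3 was the highest of the 9 libraries and B6J-Gtpbp2-/- replicate 3 the lowest.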

How the data were processed

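RNA values were deposited by the authors as kallisto (0.42.4) tables of estimated counts and TPM per transcript against a Gencode transcriptome. The estimated counts and TPM the authors deposited were summed per gene, and the counts rounded. Footprints were deposited as whole counts per gene on the coding sequence, made by the authors with Bowtie2 (2.2.3), HISAT2 (2.1.0) and featureCounts on mm10.

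Each pair of genotypes was fitted with edgeR 4.0.16 (TMM, robust quasi-likelihood test, Benjamini-Hochberg over all features) in R 4.3.3. A feature entered with 5 or more counts in 3 or more of the 6 libraries, and for efficiency a gene entered with 10 or more counts in 3 or more of the 6 libraries of RNA and likewise of footprints, histone genes (symbols starting with Hist) aside. A standard error is the size of the log2 fold change divided by the square root of F. Alternatives were DESeq2 1.42.0, limma 3.58.1, upper quartile scaling, no filter, an effective length offset, protein_coding transcripts only, all 9 libraries, sex, the replicate block, TMM within each assay and a filter on the mean count (both for efficiency) and leaving out each library. Code was tested on simulated data. Python 3.11.15, numpy 2.4.6, pandas 2.3.3 and matplotlib 3.10.9 made tables and figures.

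The members and lists were chosen with earlier results of these data known. Named were all members, the called genes of each list (at most the 4 with the smallest p) and the 5 genes most like the member with the smallest p. Ddit3 has 2 gene IDs, and the one with most RNA counts was used. Positions come from Gencode M21 (GRCm38). Counts of groups without overlap, AGA runs and percentiles, effective lengths, exon overlaps and Ddx3y in footprints were added after the data were seen. Of the gene lists, 1 is not reported here.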

Additional observations from a re-analysis of the deposited data

How the results depend on the processing

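For the 9 members against B6J in RNA, footprints and efficiency, 738 alternative values were computed. Of these, 685 kept their sign and their side of the threshold, 37 changed sign, 10 lost a call and 6 gained one. The cause of these changes was not tested, apart from the fewer libraries or transcripts that some fits use.

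The count of members called in B6J.Gtpbp1-/- RNA, 1 in the reported fit, was 0 with upper quartile scaling, all 9 libraries, the effective length offset or sex, 2 with protein_coding transcripts, and 0 to 1 when leaving out a library. In B6J-Gtpbp2-/- RNA it was 1 with DESeq2 and with no filter, and 0 to 1 when leaving out a library, in place of 0. In footprints of B6J.Gtpbp1-/-, in its efficiency and in the efficiency of the mutants against each other, leaving out a library gave 0 to 1, each time Smg1.

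With the effective length offset, Smg5 RNA changed sign to 0.08 in B6J.Gtpbp1-/- and 0.04 in B6J-Gtpbp2-/-, Upf2 RNA to -0.03 and Gtpbp2 RNA to 0.32 in B6J-Gtpbp2-/-. Leaving out a library, Upf1 RNA ranged from -0.05 to 0.08 and from -0.11 to 0.02 in the 2 mutants and Upf2 RNA from -0.02 to 0.07 in B6J-Gtpbp2-/-. In B6J.Gtpbp1-/- footprints Upf2 ranged from -0.15 to 0.29, Upf3a from -0.03 to 0.33 and Upf3b from -0.47 to 0.49. In B6J-Gtpbp2-/- footprints Smg9 ranged from -0.34 to 0.02 and Smg5 from -0.11 to 0.01. For efficiency in B6J.Gtpbp1-/- the ranges were -0.02 to 0.11 for Upf1, -0.32 to 0.10 for Upf2, -0.36 to 0.55 for Upf3b and -0.07 to 0.12 for Smg8. In B6J-Gtpbp2-/- they were -0.17 to 0.19 for Smg9, -0.05 to 0.11 for Smg5 and -0.11 to 0.18 for Smg6.

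A pairing of the libraries by replicate number was not shown. Deviations of libraries with the same number had correlations from -0.17 to 0.22 in RNA (1 of 9 pairs over 0.1), from -0.37 to 0.19 in footprints (3 of 9) and from -0.16 to 0.17 between RNA and footprints (2 of 9). The best match had the same number in 1, 3 and 4 of 9 cases. These values do not settle whether some libraries are paired. With the replicate block, 0 members were called in B6J.Gtpbp1-/- RNA, Upf3b footprints in B6J.Gtpbp1-/- changed sign to -0.14, and all calls there went from 3398 to 2237 in RNA, from 104 to 44 in footprints and from 484 to 0 for transcripts. For transcripts in B6J-Gtpbp2-/- they went from 99 to 0.

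Of the other named genes in B6J.Gtpbp1-/- RNA, Abce1, Pnrc2 and Gas5 also lost their calls with the replicate block, Abce1 and Pnrc2 with all 9 libraries and with the effective length offset, and Pnrc2 with protein_coding transcripts. In B6J-Gtpbp2-/- RNA, Dis3l lost its call with upper quartile scaling, the replicate block, the offset and protein_coding transcripts, and Atf3 with no filter and with the block. In B6J.Gtpbp1-/- footprints Atf4 and Ddit3 lost theirs with the block. In B6J-Gtpbp2-/- footprints Ddit3 gained a call with DESeq2, with no filter and without B6J replicate 2. Gtpbp2 RNA gained a call in B6J-Gtpbp2-/- with protein_coding transcripts.

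Calls over all features also moved. The split of higher and lower calls was 1449 and 1949 in B6J.Gtpbp1-/- RNA and 1837 and 1512 with upper quartile scaling, and 898 and 1248 in B6J-Gtpbp2-/- RNA and 1074 and 941 with that scaling. In B6J.Gtpbp1-/- footprints it was 80 and 24, and 251 and 155 with DESeq2. For transcripts it was 222 and 262 and 61 and 38, and with limma on log2(TPM + 0.5) 576 and 233 and 126 and 27, where the median over all transcripts moved from 0.05 to 0.16 and from 0.06 to 0.16. In the same way DESeq2 called 3409 genes in place of 2146 in B6J-Gtpbp2-/- RNA, 46 in place of 15 between the mutants, 655 in place of 406 in B6J-Gtpbp2-/- footprints, 100 in place of 0 in footprints between the mutants and 58, 160 and 155 in place of 0, 1 and 0 for efficiency. Leaving out a library gave 953 to 2357 calls in B6J-Gtpbp2-/- RNA, 1890 to 3798 in B6J.Gtpbp1-/- RNA, 22 to 186 and 106 to 619 in footprints, 0 to 33 in footprints between the mutants, 21 to 161 and 0 to 55 for transcripts and 0 to 177 for efficiency.

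Groups of 3 libraries, footprint totals down to 3630823 and counts per gene without read positions limit what can be seen of single members.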

Other observations

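Ddx3y footprints were at 84.8 and 72.7 CPM in B6J replicates 1 and 2 and at 120 CPM in B6J.Gtpbp1-/- replicate 1, and at most 2.87 CPM in the other 6 footprint libraries. In RNA the high libraries were B6J replicate 2 and B6J.Gtpbp1-/- replicates 1 and 2. B6J replicate 1 and B6J.Gtpbp1-/- replicate 2 therefore do not stand for the same mouse in both assays.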
